A study of Mus musculus with 18 samples.

Results

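Kcnq1ot1 and Airn, the long non-coding RNAs (lncRNAs) of a pair of imprinted domains, and the coding genes beside them were followed between the nuclei and the cytoplasm of mouse skeletal myofibers. The members were all probes of the Agilent array whose gene name was Kcnq1ot1, Kcnq1, Cdkn1c, Phlda2, Airn or Igf2r. These were 10 probe names for 6 genes, of 55681 probe names and 35527 gene names on the array. The Kcnq1 domain held 5 of the 10 and the Igf2r domain the other 5. RNA came from single myofibers of CD1 female mice aged 3 months, dissociated with collagenase from tibialis anterior (TA), soleus and the extensor digitorum longus (EDL). Each sample was a pool of 5 to 10 fibers from 1 or 2 mice, lysed with detergent. The nuclei were spun down and the supernatant was taken as cytoplasm, which gave 3 arrays for each fraction of each muscle, 18 in all. No treatment, and no genotype beyond the strain, is given in the labels. Pools of EDL and soleus with the same number came from the same pair of mice, and TA cytoplasm 1 and 2 shared 1 mouse. That mouse was also in pool 2 of EDL and soleus, and the mouse of TA nuclei 3 was also in pool 1 of both. The main tests leave this sharing out. Every value below compares fractions of fibers and not of whole muscles, and a higher value in 1 fraction is relative to the other RNA of that fraction.

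Imprinted genes are expressed from the copy of a single parent. Kcnq1ot1 starts inside Kcnq1, runs on the opposite strand and is made from the paternal chromosome, where it keeps neighbours such as Cdkn1c and Phlda2 silent by recruiting chromatin-modifying complexes. Airn starts inside Igf2r, also runs against it, and its transcription silences the paternal copy of Igf2r. Both lncRNAs are known as very long, mostly unspliced transcripts that stay near their site of synthesis, and shorter spliced forms of Airn are known as well. The question behind the fractionation was whether each lncRNA lies mainly in the nucleus or in the cytoplasm, and for Kcnq1ot1 and Airn it can be asked at more than 1 position.

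The 6 lncRNA probes are shown because the result for Airn depended on which of them was read. Positions are those of the array files, on build mm9, and gene models of that build were not used here. The probes for Kcnq1ot1 lay on the reverse strand of chromosome 7 at 150434020-150434079 and 150440140-150440199, 6.12 kb apart. The probes for Airn lay on the forward strand of chromosome 17 at 12944784-12944843, 13007006-13007065, 13008078-13008137 and 13008303-13008362, so the first was 62.2 to 63.5 kb from the others, which lay within 1.30 kb of each other. The probes of the coding members lay at chr7:150612887-150612946 on the forward strand for Kcnq1, at chr7:150644753-150644812 and chr7:150687464-150687523 on the reverse strand for Cdkn1c and Phlda2, and at chr17:12875253-12875263 on the reverse strand for Igf2r. The position given for Igf2r is shorter than the probe, and where the rest of it lies, across a splice junction or elsewhere, was not determined here. Capitals mark AATAAA, the canonical polyadenylation signal. It was searched for in the probe's own letters, and 10.1% of all probes on the array hold it (13.5% on either strand).
Kcnq1ot1 A_55_P2196922: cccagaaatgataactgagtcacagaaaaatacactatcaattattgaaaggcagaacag
Kcnq1ot1 A_55_P2408415: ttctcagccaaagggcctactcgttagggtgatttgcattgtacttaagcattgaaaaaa
Airn A_55_P2122633: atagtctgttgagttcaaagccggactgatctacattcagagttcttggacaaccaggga
Airn A_55_P2318309: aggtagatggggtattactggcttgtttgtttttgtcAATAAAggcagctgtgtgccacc
Airn A_55_P2055199: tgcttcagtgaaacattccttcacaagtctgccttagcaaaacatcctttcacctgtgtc
Airn A_51_P418809: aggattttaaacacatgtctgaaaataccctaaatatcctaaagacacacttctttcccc

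Among the Airn probes AATAAA was in A_55_P2318309 alone, and neither Kcnq1ot1 probe held it. Words of 12 letters were shared with other probes of the array as a measure of how common the sequence is, with a median of 27 other probes over the array. The probe A_55_P2318309 shared a word with 96 other probes, more than 98.5% of all probes. The other 3 Airn probes shared one with 13, 21 and 32, and those for Kcnq1ot1 with 42 and 13.

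Over the whole array 69.8% of the 40541 probes tested differed between nuclei and cytoplasm (31.2% higher in nuclei, 38.6% higher in cytoplasm), so a difference alone is common here. All tests of single probes are limma's moderated tests, adjusted by Benjamini-Hochberg over all probes tested, with a threshold of 0.05. A probe was tested when at least 2 of 3 arrays in each group gave a positive and significant signal, and the unit throughout is log2 intensity after quantile normalization, so that +1 is 2-fold. Levels are compared only within a probe. Replicates were closer in nuclei (median SD 0.108 to 0.147) than in cytoplasm (0.251 to 0.399). The arrays of EDL and soleus nuclei shared 1 slide and those of EDL and soleus cytoplasm another, so that in these 2 muscles fraction and slide cannot be told apart. The TA arrays allow a comparison within 1 slide. Summed over the list of 9, myofiber markers reached 106760 to 191727 units of intensity in cytoplasm and 182980 to 235745 in nuclei. Of the markers of nuclear RNA, Xist, Malat1, Neat1 and Meg3, 4 of 4 were higher in nuclei, with a median difference of 2.75.

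Of the 9 member probes that could be tested over the 3 muscles, 6 were higher in nuclei, 1 was higher in cytoplasm and 2 did not pass the test. This count of 7 of 9 stands beside the 69.8% of all probes. By muscle, 6 of 9 passed in EDL (5 higher in nuclei), where 46.6% of all probes did and 20.0% were higher in nuclei. In soleus 4 of 9 passed (4 higher in nuclei), beside 40.3% and 18.7%, and in TA 7 of 9 (6 higher in nuclei), beside 52.7% and 19.2%. The tenth probe, for Phlda2, gave no positive and significant signal on any of the 18 arrays. Over the muscles the differences were 3.27 and 2.95 for Kcnq1ot1, 2.54 for the first Airn probe, 1.12 for Igf2r, 1.11 for the last Airn probe and 0.73 for Kcnq1. The 10th and 90th percentiles over all probes tested were -1.38 and 1.12, and the median was -0.08.

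**Figure D1:**
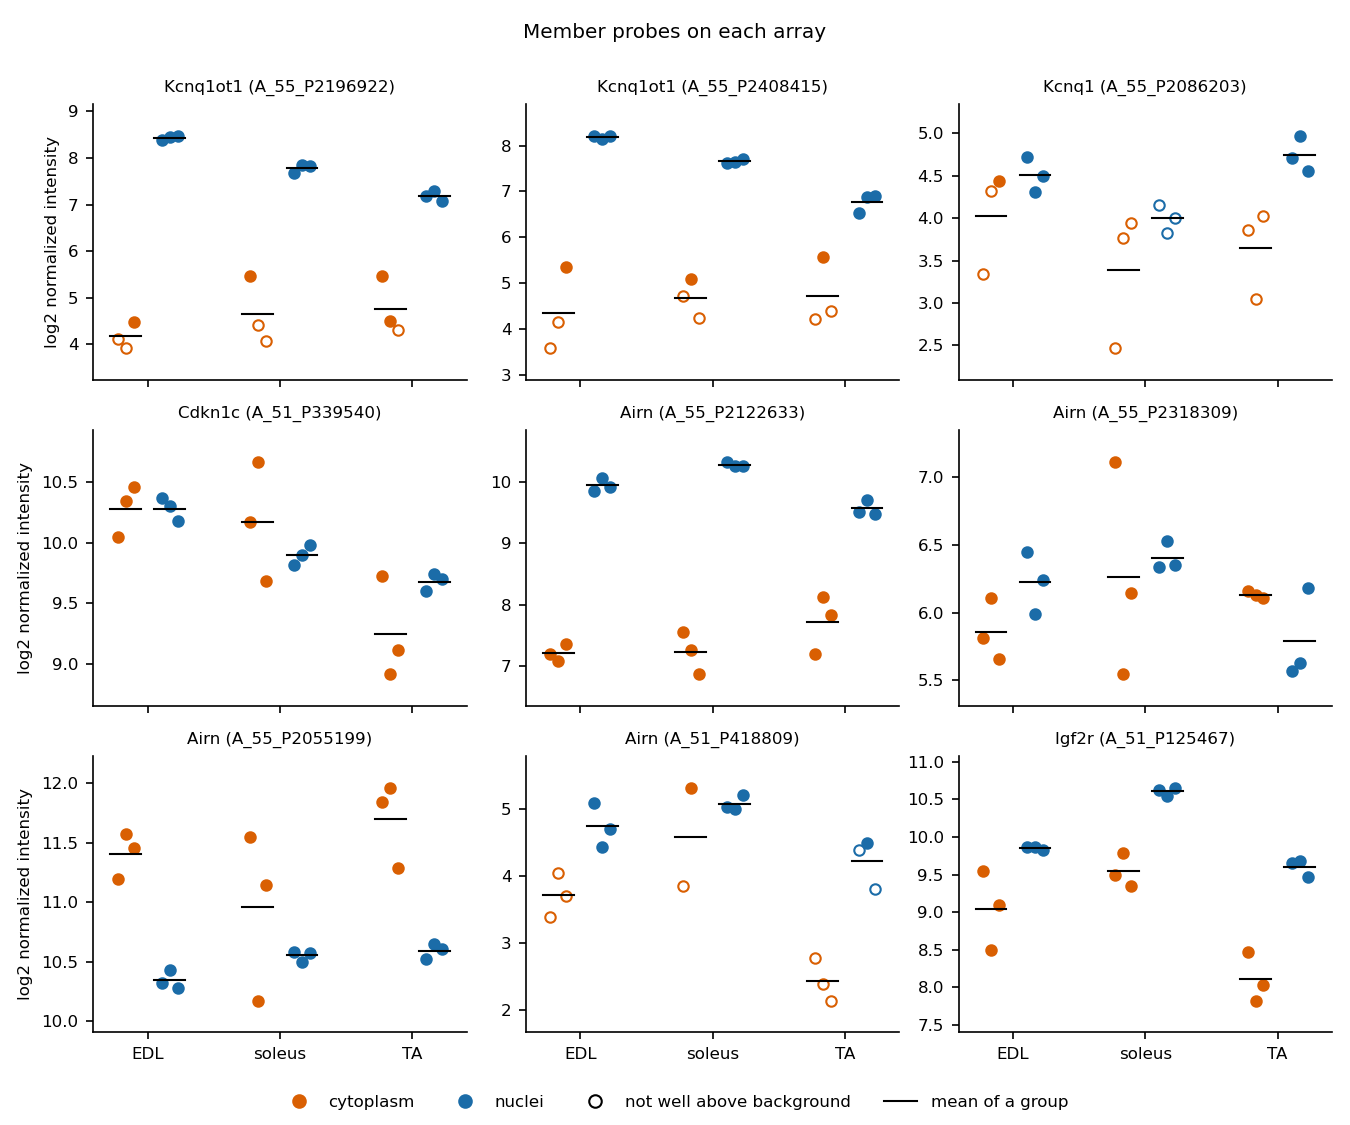
Log2 intensity of each member probe with a value (panels) on every array, by muscle, with cytoplasm and nuclei in different colours and the mean of each group as a bar. Both Kcnq1ot1 probes, Airn A_55_P2122633 and Igf2r show nuclei above cytoplasm with no overlap in each of the 3 muscles, while Airn A_55_P2055199 shows cytoplasm above nuclei in EDL and TA.

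Kcnq1ot1 was higher in nuclei by both of its probes. By probe A_55_P2196922 its level was 8.39, 8.45 and 8.47 on the 3 arrays of EDL nuclei, and 4.12, 3.92 and 4.49 on those of EDL cytoplasm. In soleus it was 7.68, 7.85 and 7.83 in nuclei, and 5.47, 4.42 and 4.07 in cytoplasm. In TA it was 7.17, 7.30 and 7.09 in nuclei, and 5.47, 4.51 and 4.31 in cytoplasm. Every nuclear array was above every cytoplasmic array of its muscle, and the cytoplasmic arrays spread more than the nuclear ones. Cytoplasm was near the limit of the array: the probe was well above background on 1 of 3 arrays of EDL, 1 of 3 of soleus and 2 of 3 of TA cytoplasm, against all 9 nuclear arrays. Nuclei minus cytoplasm came to 4.26 for EDL, 3.13 for soleus and 2.43 for TA, each with a standard error of 0.33 (adjusted p = 3.2e-07, 6.4e-06 and 3.4e-05). Over the muscles it was 3.27 ± 0.19, or 9.66-fold. With normexp background correction, which lifts dim signals by an offset of 50, it was 1.66, below the 2.26 that the first Airn probe then gave.

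The other Kcnq1ot1 probe gave the same order. By A_55_P2408415 the nuclear arrays lay between 8.14 and 8.21 for EDL, between 7.62 and 7.70 for soleus, and between 6.52 and 6.90 for TA. Those of cytoplasm lay between 3.58 and 5.35, 4.23 and 5.08, and 4.22 and 5.57. Fractions did not overlap in any muscle. EDL gave a difference of 3.82, soleus 2.98 and TA 2.04 (standard error 0.39), and 2.95 ± 0.23 over the muscles (adjusted p = 3.2e-08). The difference of the first probe exceeded that of the second by 0.33 ± 0.30 within arrays, which did not pass (exact permutation test, adjusted p = 0.268). Without TA cytoplasm 1 the gap was 0.53 and passed the test (exact permutation, adjusted p = 0.048).

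Kcnq1, the gene that Kcnq1ot1 overlaps, encodes the pore-forming subunit of a voltage-gated potassium channel best known from the heart. Its probe was dim in these fibers and well above background on 7 of 18 arrays. In EDL the level was 4.73, 4.30 and 4.50 in nuclei and 3.34, 4.32 and 4.43 in cytoplasm, so the fractions overlapped. In soleus, where no array of either fraction was well above background, it lay between 3.83 and 4.16 in nuclei and between 2.46 and 3.94 in cytoplasm. In TA the nuclear arrays, at 4.71, 4.97 and 4.56, were all above the cytoplasmic ones, at 3.86, 3.05 and 4.02. The difference was 0.48 in EDL and 0.60 in soleus, which did not pass the test (adjusted p = 0.307 and 0.209), and 1.10 ± 0.37 in TA (adjusted p = 0.021). As TA cytoplasm was not well above background on any array, the TA nuclei were at least 1.77-fold higher, where the floor is the lowest signal well above background on each array. The TA call was lost without TA cytoplasm 2 (0.81, adjusted p = 0.105) and without TA nuclei 2 (0.99, adjusted p = 0.070). Over the muscles the difference of Kcnq1 was 0.73 ± 0.22 (adjusted p = 0.0070). It was 0.30 (adjusted p = 0.221) when arrays were scaled by their 75th percentile, and 0.89 (adjusted p = 0.111) with slide as a random block.

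Cdkn1c, which encodes the cyclin-dependent kinase inhibitor p57, was the coding member with no difference past the test. Its level was 10.37, 10.31 and 10.18 in EDL nuclei and 10.05, 10.35 and 10.46 in EDL cytoplasm, with the same mean of 10.28. In soleus it was 9.82, 9.90 and 9.98 in nuclei, inside the range of cytoplasm at 10.17, 10.67 and 9.68. In TA nuclei it was 9.60, 9.74 and 9.70, and in TA cytoplasm 9.72, 8.91 and 9.12. Fractions overlapped in all 3 muscles. The difference over the muscles was 0.05 ± 0.14 (adjusted p = 0.755), with values of -0.28 in soleus and 0.43 in TA that did not pass (adjusted p = 0.385 and 0.149). In TA the value passed when only the arrays scanned on 1 day were used (0.67, adjusted p = 0.027), which is the fit without TA cytoplasm 1, and on 1 slide (0.77, adjusted p = 0.048). It also passed when arrays were scaled by their 75th percentile (0.75, adjusted p = 0.021). Without scaling between arrays the value over the muscles was 0.82 (adjusted p = 1.4e-04), where the median of all probes was 0.42. Phlda2, a small pleckstrin homology protein known for limiting growth of the placenta, gave no value to compare. Its spot missed the scanner's test for positive signal in both fractions, so that its level was not detectable here.

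**Figure D2:**
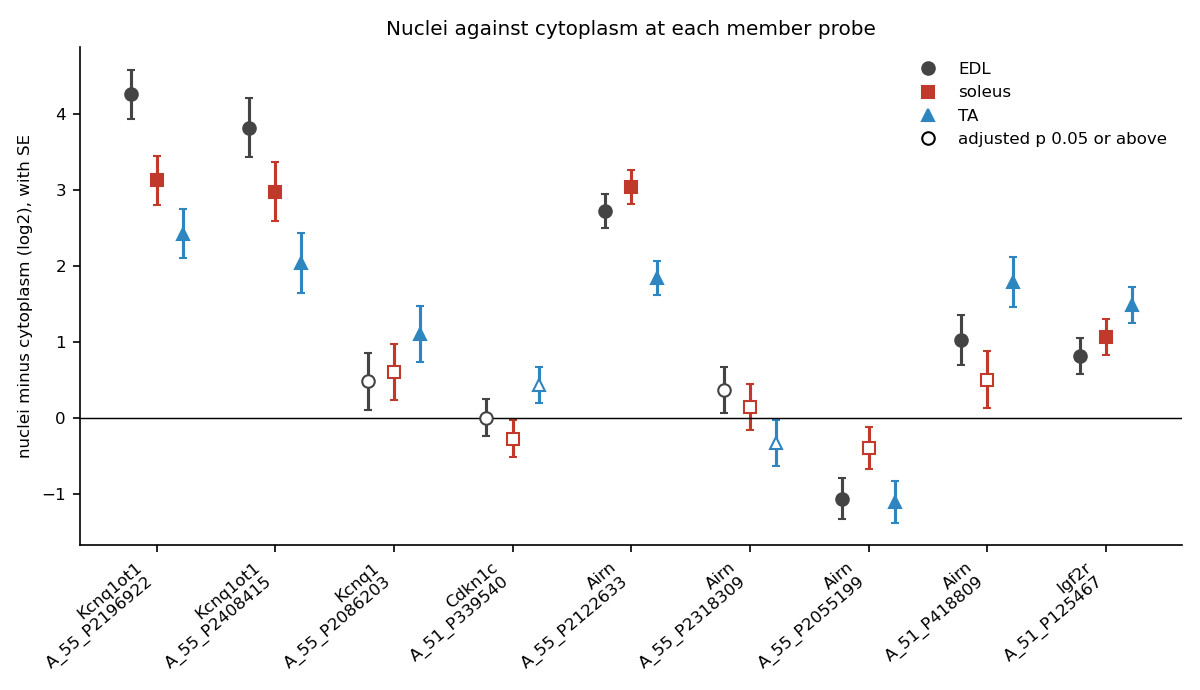
Nuclei minus cytoplasm (log2) for the 9 member probes tested, in EDL, soleus and TA, with standard errors from the fit as bars and open points where the adjusted p was 0.05 or above. The Kcnq1ot1 probes run from 2.04 to 4.26 in the single muscles, while the 4 Airn probes lie on both sides of 0.

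Airn did not give 1 answer. The probe at the lowest coordinate, A_55_P2122633, was higher in nuclei. It read 9.85, 10.06 and 9.92 in EDL nuclei and 7.20, 7.09 and 7.37 in EDL cytoplasm. In soleus it read 10.32, 10.26 and 10.25 in nuclei and 7.56, 7.27 and 6.87 in cytoplasm. In TA it read 9.51, 9.70 and 9.48 in nuclei and 7.20, 8.13 and 7.83 in cytoplasm. No nuclear array fell within the range of cytoplasm in any muscle, and all 18 arrays were well above background. EDL gave a difference of 2.72, soleus 3.04 and TA 1.84, each with a standard error of 0.23, and 2.54 ± 0.13 over the muscles, or 5.81-fold (adjusted p = 7.4e-10).

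Some 63.3 kb along the same strand, A_55_P2055199 went the other way. It read 10.32, 10.43 and 10.28 in EDL nuclei, below 11.19, 11.57 and 11.45 in EDL cytoplasm. In TA it read 10.52, 10.65 and 10.60 in nuclei, below 11.84, 11.96 and 11.29 in cytoplasm. In soleus the nuclear arrays, at 10.58, 10.50 and 10.58, lay within the range of cytoplasm, at 11.55, 10.17 and 11.15. This was the member probe that stood higher in cytoplasm. Nuclei minus cytoplasm was -1.07 in EDL and -1.11 in TA (standard error 0.28, adjusted p = 0.0054 and 0.0035) and -0.40 in soleus (adjusted p = 0.257), and -0.86 ± 0.16 over the muscles (adjusted p = 1.9e-04). Soleus cytoplasm 2 set the soleus value: without it the difference was -0.80 and passed (adjusted p = 0.0063). Without any scaling between arrays the median over all probes moved to 0.35 (EDL), 0.96 (soleus) and -0.16 (TA), and this probe then gave -0.38, 0.75 and -0.63, with -0.09 over the muscles (adjusted p = 0.652).

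The probe A_51_P418809 lies 225 bases further on and was dim, well above background on 8 of 18 arrays. It read 5.09, 4.43 and 4.69 in EDL nuclei and 3.39, 4.05 and 3.70 in EDL cytoplasm, with no overlap. In TA it read 4.38, 4.48 and 3.81 in nuclei and 2.78, 2.39 and 2.14 in cytoplasm, also with no overlap. In soleus it read 5.03, 4.99 and 5.21 in nuclei, against 3.84 and 5.31 on the 2 cytoplasm arrays that gave a value. Fitted differences were 1.02 for EDL, 0.50 for soleus and 1.79 for TA (adjusted p = 0.022, 0.301 and 5.2e-04). No cytoplasm array of EDL or TA was well above background, so the bounds are that nuclei were at least 1.52-fold higher in EDL and at least 1.24-fold higher in TA. In TA nuclei 1 of 3 arrays was well above background. The EDL call was lost without EDL cytoplasm 1 (0.86, adjusted p = 0.077) or EDL nuclei 1 (0.85, adjusted p = 0.087).

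The remaining Airn probe, A_55_P2318309, which holds AATAAA, showed no difference past the test. It lay between 5.99 and 6.44 in EDL nuclei and between 5.65 and 6.11 in EDL cytoplasm. In soleus it lay between 6.34 and 6.53 in nuclei and between 5.54 and 7.11 in cytoplasm, and in TA between 5.57 and 6.18 and between 6.11 and 6.16. Fractions overlapped in all 3 muscles. The difference was 0.06 ± 0.17 over the muscles (adjusted p = 0.782), that is, EDL 0.37, soleus 0.14 and TA -0.34.

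These gaps between Airn probes were tested within arrays, as the value of 1 probe minus that of the other. All arrays are taken as independent in this test. All 6 pairs of Airn probes differed in nuclei minus cytoplasm (exact permutation test of fraction labels within muscle, adjusted over the 7 pairs of probes of 1 gene, adjusted p = 0.0058 or below). The largest gap was between A_55_P2122633 and A_55_P2055199, at 3.396 ± 0.19 (adjusted p = 4.4e-04, with 2.5e-04 the smallest p that these permutations can give). EDL gave 3.79, soleus 3.45 and TA 2.95. The pair 225 bases apart, A_55_P2055199 and A_51_P418809, differed by -2.10 ± 0.33, on 17 arrays. A_55_P2318309 stood above A_55_P2055199 by 0.92 ± 0.13, and against A_51_P418809 the gap was -1.17 ± 0.44. The last of these missed the threshold without soleus cytoplasm 1 (-0.76, exact permutation, adjusted p = 0.052) and with normexp background correction (-0.18, exact permutation, adjusted p = 0.137). Distance along the strand did not order the values. The first probe and the last were both higher in nuclei, with lower values between them.

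Igf2r encodes the receptor for mannose 6-phosphate and insulin-like growth factor 2, which carries lysosomal enzymes and removes the growth factor. Its single probe was printed in 10 spots, and every array was well above background. The level was 9.87, 9.87 and 9.83 in EDL nuclei and 9.55, 8.49 and 9.10 in EDL cytoplasm. In soleus it was 10.63, 10.55 and 10.65 in nuclei and 9.49, 9.79 and 9.35 in cytoplasm. In TA it was 9.66, 9.68 and 9.46 in nuclei and 8.48, 7.83 and 8.04 in cytoplasm. Nuclei lay above cytoplasm with no overlap in all 3 muscles. EDL gave a difference of 0.81, soleus 1.06 and TA 1.49 (standard error 0.24, adjusted p = 0.012, 0.0026 and 1.3e-04), and 1.12 ± 0.14 over the muscles, or 2.17-fold (adjusted p = 3.5e-06). In EDL the value was 0.53 and missed the threshold (adjusted p = 0.069) without EDL cytoplasm 2. The 10 spots of an array had an SD of 0.078 to 0.140, which gives the array mean an SD of 0.025 to 0.044. The SD between arrays was 0.023 in EDL nuclei, no larger than that, 0.053 in soleus nuclei, 0.119 in TA nuclei and 0.223 to 0.529 in cytoplasm. With the nuclear arrays of each muscle counted as 1 sample, both Kcnq1ot1 probes, Igf2r and the 3 Airn probes with a call kept it over the muscles (adjusted p = 0.047 for A_55_P2055199), and Kcnq1 lost its call (adjusted p = 0.152). Within muscles that count ended the calls of Igf2r in EDL, soleus and TA (adjusted p = 0.304, 0.225 and 0.068), of A_55_P2055199 in EDL and TA (0.232 and 0.180), of A_51_P418809 in EDL and TA (0.295 and 0.075), of the second Kcnq1ot1 probe in soleus and TA (0.052 and 0.086) and of Kcnq1 in TA (0.278). Significance Analysis of Microarrays at a false discovery rate of 1%, the test of the study's methods, did not call Igf2r in EDL, or Igf2r, A_55_P2055199 and Kcnq1 in TA. It called 46.3% of all probes in EDL and 23.6% in TA, where limma called 46.6% and 52.7%.

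For 4 probes the fractions did not overlap in each of the 3 muscles with nuclei on top: both probes of Kcnq1ot1, A_55_P2122633 of Airn, and Igf2r. Of the 35528 probes with a value on every array, 14.5% did the same and 21.4% had cytoplasm on top throughout. Within the TA arrays of 1 slide (3 of nuclei and 1 of cytoplasm, whose spread is assumed to be that of the other groups) the first Kcnq1ot1 probe gave 2.68, the first Airn probe 1.43, A_55_P2055199 -1.37 and Igf2r 1.78. All of these passed (adjusted p = 2.8e-04, 5.8e-04, 0.0096 and 7.4e-04). The second Kcnq1ot1 probe gave 1.20 and missed the threshold (adjusted p = 0.062). With slide as a random block in the fit of all arrays, the EDL calls of A_55_P2055199 (-0.999, adjusted p = 0.156), A_51_P418809 (1.18, adjusted p = 0.177) and Igf2r (0.98, adjusted p = 0.106) and the soleus call of Igf2r (1.23, adjusted p = 0.062) were lost.

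Each lncRNA was then set against its coding partner within arrays, which cancels any factor common to all probes of an array. Nuclei minus cytoplasm was larger for Kcnq1ot1 (A_55_P2196922) than for Kcnq1 by a fitted 2.54 ± 0.35, and larger than for Cdkn1c by 3.22 ± 0.17. In cytoplasm Kcnq1ot1 was well above background on 4 of 9 arrays and Kcnq1 on 1 of 9, so the sizes of these gaps rest on dim signals, and Kcnq1 was not well above background in soleus at all. With normexp background correction the gaps were 1.48 and 1.56, and both still passed (exact permutation, adjusted p = 0.00025 for each). Both held in each muscle, at 3.78, 2.52 and 1.32 for Kcnq1 and at 4.26, 3.405 and 1.99 for Cdkn1c in EDL, soleus and TA. For Airn, read by A_55_P2055199 as its probe of highest mean signal, the gap to Igf2r was -1.98 ± 0.24, that is, 3.94-fold lower in nuclei. The exact permutation test gave p = 0.00025 for each of these 3 pairs, the smallest value it allows, and the same after adjustment. It takes all arrays as independent, and it was not run with the nuclear arrays as 1 sample or with slide as a block. For Airn the direction rested on the probe, as pairs added after the data had been seen showed. By A_55_P2122633 Airn was higher in nuclei relative to Igf2r by 1.42 ± 0.19 (exact permutation, adjusted p = 0.0029). By A_55_P2318309 the gap was -1.06 ± 0.26 (exact permutation, adjusted p = 0.0059), and by A_51_P418809 it was -0.06 ± 0.33 (exact permutation, adjusted p = 0.855). The second Kcnq1ot1 probe exceeded Kcnq1 by 2.22 and Cdkn1c by 2.90 (exact permutation, adjusted p = 0.0025 and 0.0013). Its gap to Kcnq1 was 0.94 in TA, where the fractions overlapped.

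**Figure D3:**
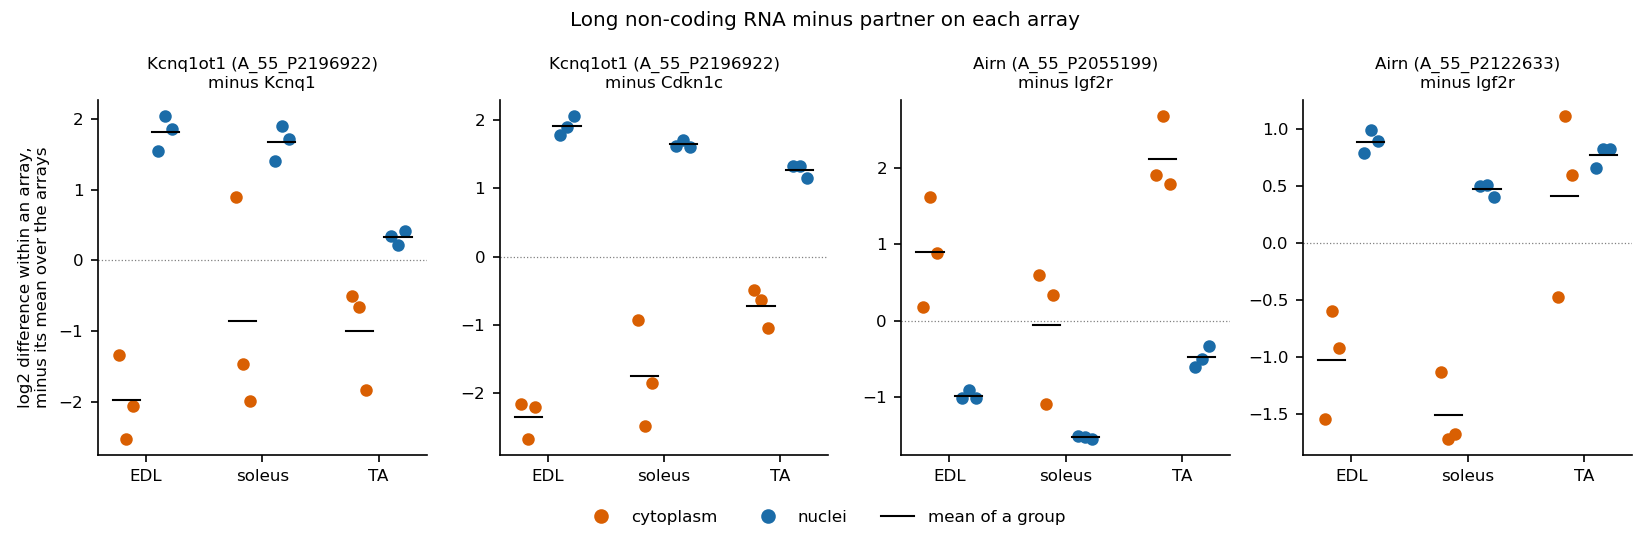
Log2 value of a lncRNA probe minus that of its coding partner on each array, less the mean of that pair over the arrays, with cytoplasm and nuclei in different colours. For Kcnq1ot1 the nuclear arrays stand higher against both partners, and for Airn the direction is opposite between A_55_P2055199 and A_55_P2122633, with overlap of the TA arrays for the latter.

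The fraction difference of the 9 members was also compared among muscles. None passed the moderated F test for an interaction of muscle and fraction, which 1.57% of all probes passed. The lowest values were for Kcnq1ot1 A_55_P2196922 (adjusted p = 0.103) and Airn A_55_P2122633 (adjusted p = 0.115). These and the other Kcnq1ot1 probe, 3 in all, were under 0.05 before adjustment. The sizes that went with them were a Kcnq1ot1 difference smaller in TA than in EDL by -1.84 ± 0.46 and an Airn difference smaller in TA than in soleus by -1.20 ± 0.32. Significance Analysis of Microarrays was not run for this contrast. There was 1 member probe past the test when soleus cytoplasm 1, TA cytoplasm 1 or TA cytoplasm 3 was left out, and 5 were past it without scaling between arrays.

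Within nuclei, Kcnq1ot1 was lower in TA than in EDL by both probes, by -1.25 ± 0.33 and -1.41 ± 0.39 (adjusted p = 0.018 and 0.025), and these were 2 of the 9 members, with 17.4% of all probes differing (9.81% lower in TA). Leaving out any 1 of the EDL nuclei arrays, or TA nuclei 1 or 3, ended both calls, and leaving out TA nuclei 2 left 1. With slide as a random block the count was 0. Between soleus and EDL nuclei no member differed past the test, where 1.56% of all probes did. Igf2r, at 0.76, was the one to be under 0.05 before adjustment. EDL and soleus pools of the same number shared mice, which the main test leaves out. With replicate number as a block the count was 0 too. The main fit uses 1 estimate of spread for both fractions, although replicates were closer in nuclei than in cytoplasm. With arrays weighted by fraction, 5 of the 9 members passed between soleus and EDL nuclei. That setting gave 6 for TA against EDL nuclei and 7 for TA against soleus nuclei, and the shares of all probes are not given for it. Against soleus nuclei, TA nuclei were lower for Igf2r by -1.01 ± 0.24 (adjusted p = 0.0089) and for Airn A_55_P2122633 by -0.71 ± 0.23 (adjusted p = 0.038), with 19.6% of all probes differing (11.9% lower in TA). This count of 2 was 1 with replicate number as a block, 1 without any 1 of the 9 nuclear arrays, and 0 with slide as a random block. TA and soleus nuclei of the same number shared no mouse, so the replicate block did not follow the mice in this comparison. The order of nuclear levels for Kcnq1ot1 was EDL, soleus, TA, and neighbours in that order did not differ past the test in the main fit. TA nuclei lay on another slide than EDL and soleus nuclei, so muscle and slide cannot be told apart here. Markers of other cells also differed between these nuclei. Summed satellite cell markers were 653 to 953 in EDL, 815 to 1387 in soleus and 4722 to 5634 in TA nuclei, and those of smooth muscle and pericytes 4739 to 4816, 4271 to 4546 and 16402 to 24165. Their part in the differences between muscles was not tested.

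Within cytoplasm, TA was lower than EDL for Cdkn1c by -1.03, for Igf2r by -0.93 and for Airn A_51_P418809 by a fitted -1.28 (adjusted p = 0.016, 0.021 and 0.025), with 12.4% of all probes differing (7.33% lower in TA). The same 3 were lower in TA than in soleus, by -0.92, -1.43 and -2.14 (adjusted p = 0.012, 8.6e-04 and 0.0014), with 28.6% differing (12.8% lower in TA). A_51_P418809 was not well above background on any array of TA or EDL cytoplasm, and on 1 array of soleus cytoplasm, so no size can be given for its differences here. Soleus and EDL cytoplasm did not differ past the test for any member, where 1.42% of all probes did, and 1 member probe, A_51_P418809, was under 0.05 before adjustment. With replicate number as a block this count was 0 as well. Without TA cytoplasm 2 none of the 3 calls against EDL was left, and 1 was left without EDL cytoplasm 3 or TA cytoplasm 3. The TA cytoplasm arrays were on 3 slides, and with slide as a random block the count against EDL was 0. With arrays weighted by fraction, where cytoplasm arrays count less, it was 0 against EDL and 2 against soleus.

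The surroundings of the 2 loci were read through every probe of any name up to 50000 bases beyond the members. On the strand of Airn there were 21 probes, of which 15 were tested over the muscles, 11 were higher in nuclei and 2 higher in cytoplasm, with a median difference of 1.34. On the strand of Igf2r 10 were tested, 3 were higher in nuclei and 3 in cytoplasm, with a median of 0.05. Over all probes of the array 31.2% were higher in nuclei. Of 5 lincRNA probes at chr17:12944295-12944639, next to the first Airn probe and on its strand, 4 could be tested, and these 4 were higher in nuclei, by 1.09 to 2.54. In EDL, 3 of these 4 were not well above background on any array of cytoplasm, so that nuclei were at least 3.65- to 5.52-fold higher there. At chr17:12968024-12968313, 23.2 to 23.5 kb along, 2 of 3 probes could be tested and both were higher, by 1.34 and 2.79. Beyond the cluster of 3 Airn probes, ENSMUST00000105044 at chr17:13011269-13011328 was higher by 2.11 and a lincRNA probe at chr17:13013684-13013743 by 1.90. A probe at 78.1 kb was higher by 0.72, and the next 2 tested on this strand, at 78.8 and 78.9 kb, stood at -0.20, which did not pass, and -0.30 (adjusted p = 0.0096). Forward-strand probes on both sides of A_55_P2055199 and A_55_P2318309 were higher in nuclei, and these 2 were not.

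**Figure D4:**
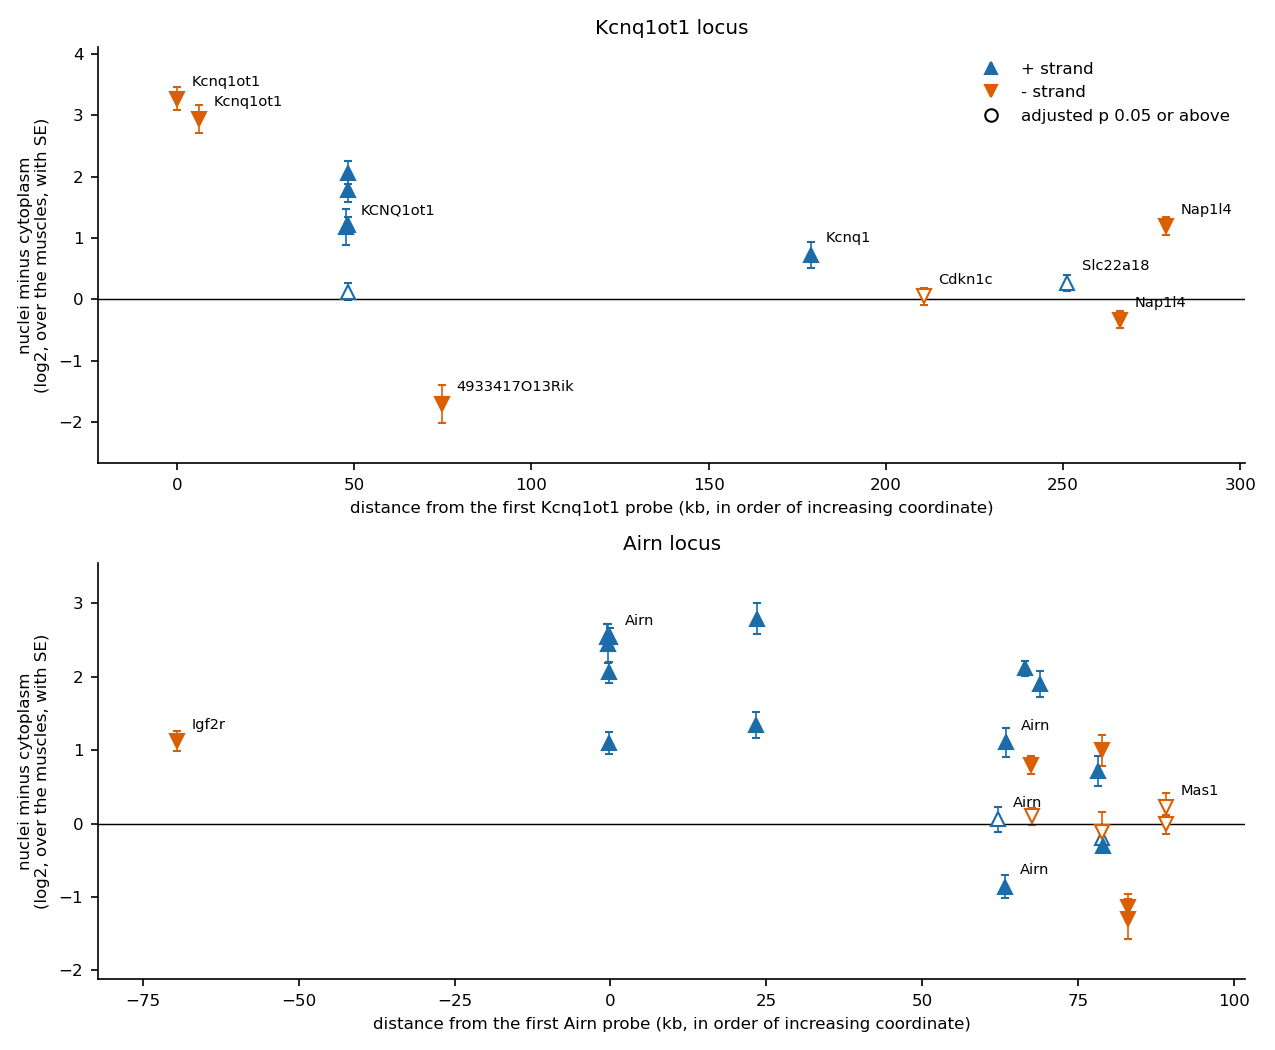
Nuclei minus cytoplasm over the muscles (log2) for probes tested near Kcnq1ot1 (top) and Airn (bottom), leaving out 1 probe near Airn that is not reported here, against distance in kb from the first lncRNA probe, with the 2 strands as different symbols, standard errors as bars and open symbols where the adjusted p was 0.05 or above. Forward-strand probes at the Airn locus mostly lie between 0.72 and 2.79, apart from the Airn probes at 62.2 and 63.3 kb and a pair at 78.8 and 78.9 kb.

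Around Kcnq1ot1 the reverse strand, which it uses, had 7 probes, of which 6 were tested and 3 were higher in nuclei, 2 of them its own. The forward strand had 8, of which 7 were tested and 5 were higher in nuclei, with a median of 1.18. Of the 8, 5 carry the name KCNQ1ot1 in capitals, as lincRNA probes of a region at chr7:150399015-150482452, yet they lie on the forward strand, that of Kcnq1, within 54 to 646 bases of the region's end. Because their strand is opposite to that of the Kcnq1ot1 probes, they were not counted as members. Of these 5, 4 were higher in nuclei, by 1.18 to 2.07, and the fifth, at 0.13, did not pass (adjusted p = 0.430). The transcript 4933417O13Rik, on the reverse strand 74.7 kb from the first Kcnq1ot1 probe, was higher in cytoplasm (-1.70 ± 0.31, adjusted p = 1.6e-04), with -3.43 in TA. A second probe that overlaps the one for Kcnq1, named ENSMUST00000009689, could be tested in EDL and TA only and did not pass in either (0.10 and 0.73). The Nap1l4 probe of highest mean was higher in cytoplasm (-0.33) and the other Nap1l4 probe higher in nuclei (1.19).

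Other genes of the imprinted domains were read by 1 probe each, that of highest mean. Of 15 listed for the Kcnq1 side, 2 were higher in nuclei over the muscles and 6 higher in cytoplasm, with a median of -0.23. The array's own shares were 31.2% higher in nuclei and 38.6% higher in cytoplasm, and 6 of 15 is near the latter. Among the 6 were Th (-1.37), the first enzyme of catecholamine synthesis, the decoy receptor Tnfrsf22 (-1.06), the cation channel Trpm5 (-1.02) and Ascl2 (-0.56), a transcription factor of the placenta. Of 13 with a probe on the Igf2r side, 11 were tested, 6 were higher in nuclei and 3 in cytoplasm, with a median of 0.30. Plg, the precursor of plasmin, was higher in cytoplasm (-2.11), as was Pnldc1 (-1.72). Slc22a2 and Slc22a3, known targets of Airn in the placenta, were too dim to be tested over the muscles. In soleus alone, 12 of the 13 genes with a probe could be tested. Both domains had genes on either side of the array median of -0.08.

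The silencing machinery was listed as the Polycomb, H3K9 and DNA methyltransferase genes and the RNA-binding proteins known to work with these lncRNAs. Of 23 genes 19 were tested, and the transcripts of 14 were higher in nuclei and 1 higher in cytoplasm, with a median of 0.80. Ezh2, Ring1, Rnf2, Pcgf3, Cbx2 and Cbx8 were not well above background on any cytoplasm array. The values of those tested among them rest on dim signals. Over all probes 31.2% were higher in nuclei, and the 9 myofiber markers, of which 7 were higher in nuclei, had a median of 0.83. The largest values were for the DNA methyltransferase Dnmt3a (1.49 ± 0.13), the Polycomb subunit Suz12 (1.34 ± 0.22) and its cofactor Jarid2 (1.26 ± 0.19). Hnrnpk, which links lncRNAs to Polycomb complexes, stood at 0.92 and Hnrnpu at 0.83. Cbx7 was the one higher in cytoplasm (-0.38), and Ehmt2, the H3K9 methyltransferase known as G9a, did not pass (-0.22, adjusted p = 0.327). These are positions of mRNAs and say nothing of the proteins.

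Of the partners of the coding members, the anchoring protein Akap9 was higher in nuclei (1.73). So was the auxiliary channel subunit Kcne4, with a fitted value of 1.73, although no cytoplasm array was well above background for it. Of the channel partners tested, 3 of 4 were higher in nuclei, beside 31.2% of all probes. Kcne1 and Kcne2 were too dim to be tested over the muscles. In EDL alone, 5 of the 6 channel partners could be tested. Among 6 tested receptors and ligands, the receptors Igf1r (1.37) and Insr (0.61) were higher in nuclei and the ligands Igf1 (-0.79) and Igf2 (-0.40) higher in cytoplasm. Of the cell cycle genes beside Cdkn1c, Pcna was higher in nuclei (0.61) and Ccne1 in cytoplasm (-0.60), and the other 4, the inhibitors Cdkn1a (-0.03) and Cdkn1b (0.08) among them, did not pass. Phlda1, of the family of Phlda2, was higher in nuclei (1.10).

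**Figure D5:**
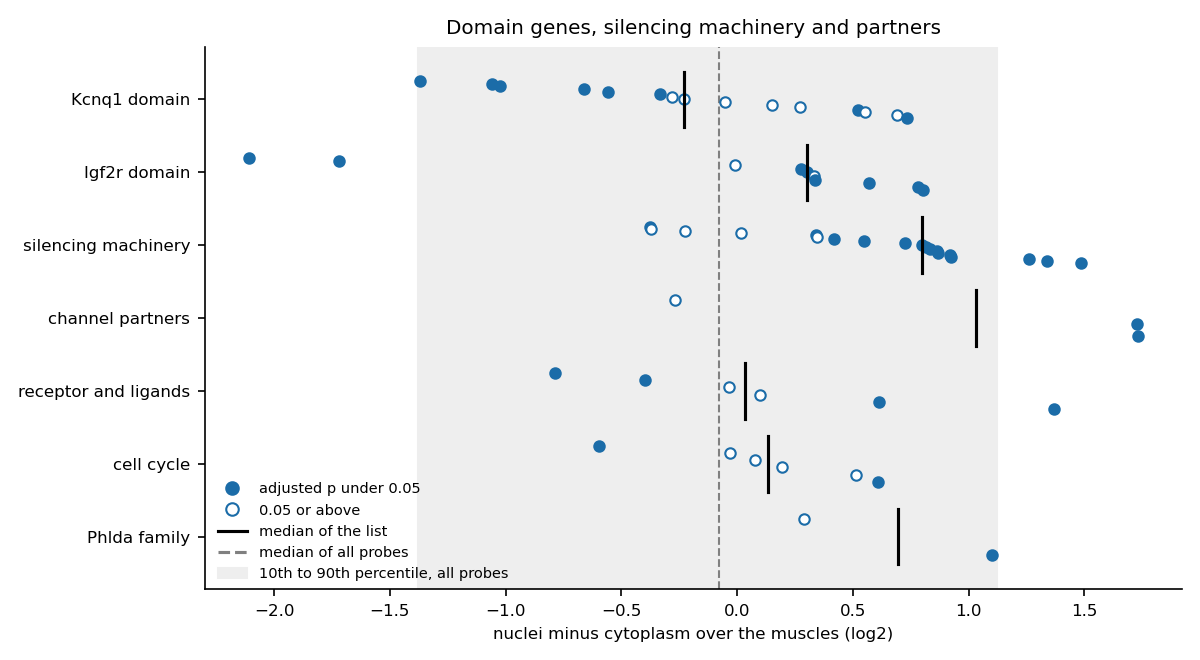
Nuclei minus cytoplasm over the muscles (log2) for tested genes of the 7 gene lists (points, open where the adjusted p was 0.05 or above), with the median over all tested genes of each list as a bar, beside the 10th to 90th percentile of all probes (grey band, -1.38 to 1.12). The silencing machinery has 14 of 19 genes higher in nuclei, and 2 genes of other lists that are not reported here have no point.

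Markers of other cell types moved with fraction as well. Of the lists of markers, 7 of 9 for myofibers were higher in nuclei and none higher in cytoplasm. So were 8 of 8 for endothelium, 6 of 8 for fibroblasts, 6 of 6 for Schwann cells and 3 of 6 for smooth muscle and pericytes, the last with 1 higher in cytoplasm. Macrophage markers were higher in cytoplasm for 4 of 6 and erythroid markers for 2 of 4. The shares of all probes were 31.2% higher in nuclei and 38.6% higher in cytoplasm. The erythroid markers differed among muscles, with 4 of 4 higher in cytoplasm in soleus (median -1.53) and 2 of 4 higher in nuclei in TA (median 0.83). Of all probes, 40.3% differed in soleus (18.7% higher in nuclei), and 19.2% were higher in nuclei in TA. Of the satellite cell markers 3 could be tested, with Vcam1 higher in nuclei and Myod1 in cytoplasm, and Myf5 and Calcr were not well above background on any array. The summed intensity of endothelial markers was 7656 to 8248 in EDL nuclei and 4220 to 4695 in EDL cytoplasm, that of fibroblast markers 71519 to 74404 and 28288 to 35981, and that of Schwann markers 3658 to 3818 and 1253 to 1317. In TA the same sums were 8698 to 10136 and 2156 to 3622, 38423 to 41962 and 19890 to 30127, and 1379 to 1549 and 663 to 767. In soleus endothelial sums overlapped, at 6863 to 7354 and 3958 to 7480, while fibroblast sums, at 65333 to 67570 and 33607 to 46923, and Schwann sums, at 2095 to 2324 and 1223 to 1561, did not. The part of these cells in the members' differences was not tested. In bulk samples, fewer cells of a type and less RNA per cell cannot be told apart.

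The probes with the pattern closest to each lncRNA were found by the root mean square difference over all 18 arrays, after each probe was centred on its mean. Nearest to Kcnq1ot1 A_55_P2196922, among 31143 candidates, were a lincRNA probe in a region on the reverse strand of chromosome 19 (chr19:5798135-5800557, distance 0.39), a lincRNA on the forward strand of chromosome 4 (chr4:136856064-136877219, 0.40) and Etl4 (0.42). Their nuclei minus cytoplasm was 3.26, 2.90 and 2.87. The chromosome 19 probe lies 2.76 kb from that for Malat1, on the same strand. Nearest to Airn A_55_P2055199, among 31142, were C77847 (distance 0.086), E230025N22Rik (0.092) and Lrrc8e (0.095), at -0.81, -0.89 and -0.93. The sign of these differences follows from how the probes were chosen.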

How the data were processed

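RNA of 18 myofiber fractions was hybridised to 1-colour Agilent arrays. The intensity values analysed were the processed signals in the scanner files that the authors deposited, made with Agilent Feature Extraction 10.7.3.1 per the file headers, with probe positions on build mm9. Signals that were not positive and significant, and outlier spots, were set to missing (16.1%). The rest was taken to log2 from the deposited intensity, quantile normalized between arrays as in the study's methods, and averaged over spots of a probe. One model of 6 group means was fitted over all 55681 probes with limma 3.58.1 (R 4.3.3), with Benjamini-Hochberg adjustment over the probes tested. The study's methods used Significance Analysis of Microarrays, with the median count of false positives held under 1%. Its cutoff, delta, is not given there as a number, so limma was the main test. Significance Analysis of Microarrays at a false discovery rate of 1% served as an alternative. Pairs of probes were tested by exact permutation of fraction labels within muscles (scipy 1.17.1, numpy 2.4.6, pandas 2.3.3, Python 3.11.15, matplotlib 3.10.9). Scripts were tested on simulated data.

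The named genes were all probes of the 6 member genes, the listed genes by their probe of highest mean, every probe within 50000 bases of a locus and the 3 probes most alike. Members and lists were chosen with earlier results of these data known. Between 78.9% and 89.3% of spots per array were positive and significant, and the number of arrays limits the precision. Bounds use, on each array, the lowest signal among probes well above background. Per the labels, nuclei and cytoplasm of the same number came from the same mice in EDL and soleus, shared 1 mouse in TA 1 and TA 2, and shared none in TA 3. Their deviations from group means correlated at -0.087 to 0.131, and the fit with the number as a block was an alternative. The other alternatives were other scalings, filters, background correction, array weights, slide, single slides or scan days, the nuclear arrays as 1 sample, each array left out, and the value table. That table, which the authors deposited as quantile normalized intensity on a linear scale, holds values for 3668 probes.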

Additional observations from a re-analysis of the deposited data

How the results depend on the processing

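Of 400 values of single probes and pairs of 1 gene under other settings, 351 kept their direction and their side of the threshold, 28 lost a call, 11 gained one and 10 changed sign, and of 770 with 1 array left out, 753, 6, 3 and 8 did so. The cause was not tested except where stated. The count of member probes called, 7 over the muscles, was 3 when signal well above background was required, since only 5 probes could then be tested. That filter gave 3 in EDL, 2 in soleus and 4 in TA, 1 for the interaction F test and 4 for TA against soleus nuclei. When nuclear arrays counted as 1 sample per muscle, the counts were 3 in EDL, 2 in soleus and 2 in TA, with fewer samples. With slide as a random block they were 3 in EDL and 0 for TA against EDL nuclei, TA against soleus nuclei and TA against EDL cytoplasm. Without scaling, where the median of all probes moved to 0.96 in soleus, they were 9 in soleus, 5 for the F test, 1 for soleus against EDL nuclei, 7 for TA against soleus nuclei and 5 for TA against soleus cytoplasm. Normexp gave 2 for the F test and 1 for soleus against EDL nuclei. Array weights gave 5, 6 and 7 for soleus against EDL, TA against EDL and TA against soleus nuclei and 0 for TA against EDL cytoplasm. TA against soleus nuclei gave 1 with 75th percentile scaling, 1 without the filter on dim spots and 1 with replicate number as a block. The block moved no other count by over 1.5 times. Shares of all probes called are not given for these settings. A shift of the members therefore cannot be told from one of the whole array. Significance Analysis of Microarrays called 5 in EDL, 4 in soleus and 4 in TA, beside 46.3%, 43.9% and 23.6% of all probes.

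With 1 array left out, the counts ranged from 6 to 7 over the muscles, 5 to 6 in EDL, 4 to 5 in soleus, 6 to 8 in TA, 0 to 1 for the F test, 0 to 0 for soleus against EDL in nuclei and in cytoplasm, 0 to 3 for TA against EDL nuclei, 1 to 3 for TA against soleus nuclei, 0 to 4 for TA against EDL cytoplasm and 2 to 4 for TA against soleus cytoplasm. The partner pairs kept their direction and call, at 2.35 to 2.83, 3.099 to 3.36 and -2.15 to -1.86. With normexp they were 1.48, 1.56 and -1.80, with 75th percentile or no scaling 2.84, 2.92 and -1.97, and all kept their calls. Where signal well above background was required, Kcnq1ot1 against Kcnq1 gave no value. Kcnq1ot1 against Cdkn1c (2.82) and Airn against Igf2r (-1.98) kept their calls there.

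Cdkn1c in EDL, with a main value of 0.00, was 0.18 with 75th percentile scaling, 0.70 without scaling, 0.068 without the filter on dim spots, 0.068 with signal well above background, 0.015 with normexp and 0.22 with slide as a random block, and in soleus 0.91 without scaling. Kcnq1 in soleus was -0.0056 and Airn A_55_P2318309 over the muscles -0.038 with 75th percentile scaling. Airn A_55_P2055199 in soleus was 0.75 without scaling. Airn against Igf2r was 1.42 by A_55_P2122633 and -0.055 by A_51_P418809. With 1 array left out, Cdkn1c ranged from -0.030 to 0.13 over the muscles and from -0.12 to 0.088 in EDL, and A_55_P2318309 from -0.064 to 0.20 over the muscles and from -0.22 to 0.56 in soleus. In the deposited value table, both Airn probes that it holds kept their directions, and A_51_P418809 was 1.81 over the muscles and gained a call in soleus (1.66, adjusted p = 0.024). Dim signal limits Kcnq1, A_51_P418809 and the cytoplasm of Kcnq1ot1.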
